A study of Mus musculus with 6 samples.

Results

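The contactins and the L1 family are cell surface proteins of the immunoglobulin superfamily, and 10 mouse genes of these families were followed by gene symbol: the contactins Cntn1, Cntn2, Cntn3, Cntn4, Cntn5 and Cntn6, and the L1 family genes L1cam, Chl1, Nrcam and Nfasc. All 10 were found among the 20367 genes of the deposited tables, and all 10 were above 0 in at least 1 library and so were among the 19561 genes tested. The study sorted neurons of the embryonic cortex into neurons derived from intermediate progenitor cells, the dividing Tbr2-expressing (Eomes-expressing) cells between radial glia and neurons, and neurons not derived from them, and compared their RNA by RNA-seq. Mice heterozygous for Tbr2(Eomes)-GFP were bred with homozygous DCX-mRFP mice on the C57BL/6J strain. Per the labels' protocols, the cortices came from embryos positive for both GFP and RFP. Cells that were both green and red are called IPN here, and cells that were only red are called non-IPN. Each population had 1 library per age, at embryonic day 13.5 (E13.5), day 15.5 (E15.5) and day 16.5 (E16.5), which gives 6 libraries in all.

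The E15.5 RNA came from 1000000 cells of each population and was extracted with TRIzol, with no amplification named. The E13.5 and E16.5 RNA came from 10000 cells of each population and was amplified with the Ovation RNA-Seq System V2 kit before library preparation. Age, cell number and amplification therefore cannot be told apart at E15.5, and levels were compared between ages only for E16.5 and E13.5. The population by day term given below also used the E15.5 libraries. The labels name no separate animals behind the libraries, so p-values measure no spread between animals. In the test between populations they rest on how the difference varied over the days, which differ in age and preparation. The fit also borrows spread from other genes. The reporters limit the sort: GFP marks cells that inherit the protein from Eomes-expressing cells, and the DCX reporter marks newly born neurons of any origin.

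L1 family proteins span the membrane, bind each other and other adhesion molecules outside the cell, and link to the actin and spectrin skeleton through ankyrins inside it. Contactins are held to the membrane by a lipid anchor and act with partners such as the L1 family and the contactin-associated proteins. Both families are known for axon growth, bundling of axons and the migration of young cortical neurons, and Cntn2, also called TAG-1, is a classic protein of the earliest cortical axons.

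The promoters of 4 members are shown because the results turn on them: Cntn2, Nfasc and L1cam were higher in IPN, and Chl1 had the opposite direction and rose with age. Each run is the 250 bases before and the 50 bases after a transcript start in the RefSeq promoter table (GRCm38.p6), read 5′ to 3′ on the gene's strand, with E-boxes (CANNTG, the core bound by basic helix-loop-helix factors) in capitals. The windows lie at chr1:132542891-132543190 (minus strand) for Cntn2, chr1:132707277-132707576 (minus) for Nfasc, chrX:73880741-73881040 (minus) for L1cam and chr6:103510626-103510925 (plus) for Chl1.
Cntn2: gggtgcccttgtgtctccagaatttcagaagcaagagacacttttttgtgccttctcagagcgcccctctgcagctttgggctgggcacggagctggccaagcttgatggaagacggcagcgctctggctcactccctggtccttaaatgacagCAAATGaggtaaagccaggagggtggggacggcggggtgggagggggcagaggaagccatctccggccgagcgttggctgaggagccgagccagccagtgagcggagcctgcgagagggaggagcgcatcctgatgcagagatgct
Nfasc: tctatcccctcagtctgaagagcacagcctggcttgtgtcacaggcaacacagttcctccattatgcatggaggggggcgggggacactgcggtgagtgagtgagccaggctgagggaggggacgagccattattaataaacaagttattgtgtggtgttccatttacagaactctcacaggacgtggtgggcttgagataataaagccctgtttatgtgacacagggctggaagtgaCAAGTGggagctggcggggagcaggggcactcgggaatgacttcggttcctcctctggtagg
L1cam: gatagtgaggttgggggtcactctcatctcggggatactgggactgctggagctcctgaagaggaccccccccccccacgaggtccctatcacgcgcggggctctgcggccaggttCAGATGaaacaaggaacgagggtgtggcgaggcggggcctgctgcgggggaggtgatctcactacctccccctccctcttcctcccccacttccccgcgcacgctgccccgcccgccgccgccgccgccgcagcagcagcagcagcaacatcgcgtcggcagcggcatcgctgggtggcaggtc
Chl1: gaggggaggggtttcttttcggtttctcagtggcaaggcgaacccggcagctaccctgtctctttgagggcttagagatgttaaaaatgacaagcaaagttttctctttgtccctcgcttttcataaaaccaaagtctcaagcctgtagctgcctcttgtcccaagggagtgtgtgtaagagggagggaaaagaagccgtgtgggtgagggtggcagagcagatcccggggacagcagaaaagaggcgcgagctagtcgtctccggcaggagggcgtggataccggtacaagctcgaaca
The Cntn2, Nfasc and L1cam windows each hold 1 match to CANNTG, which starts at base 155, base 239 and base 117 of the run, and the Chl1 window holds none. The other members, which like Chl1 did not pass between populations, have from 0 to 4 matches in the first listed window. These are 0 in Cntn1, 1 in Nrcam and in Cntn3, 3 in Cntn5, and 4 in Cntn4 and in Cntn6. CANNTG reads the same on both strands and is in 72.3% of all 32851 promoter windows of the table, so its presence in a window is common. The L1cam match reads CAGATG on the gene's strand, a form of the E-box that neurogenic factors of the NeuroD and Neurogenin kind bind, and every CAGATG match is also a CANNTG match. CAGATG or its reverse CATCTG is in 17.2% of all windows and, of the 4 runs, in that of L1cam. TAATTA, a homeodomain core that reads the same on both strands, is in 5.29% of all windows and in none of the 4 runs. These matches describe letters in the window and say nothing of binding.

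All 10 genes have windows in that table, 16 in all, and the first listed is shown. Nfasc and L1cam each have a second window, with 1 and 2 matches to CANNTG. In the GENCODE M21 annotation Cntn2 and Nfasc are neighbouring protein-coding genes on the minus strand of chromosome 1, and Cntn3, Chl1, Cntn6 and Cntn4 follow one another on chromosome 6. The genes on the outer sides of the Cntn2 and Nfasc pair are Tmem81 and Lrrn2. The fitted difference between IPN and non-IPN, given as log2 on the deposited scale, was 0.08 for Tmem81 (limma, adjusted p = 0.989) and 0.31 for Lrrn2 (adjusted p = 0.805), so neither outer neighbour passed the test that both members of the pair passed.

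Levels are in CPM, here the share of a library's column total scaled to 1000000, and values of a population are listed in the order of the 3 ages. The column totals of the deposited values were 15472487, 32538995 and 14620980 in IPN at the 3 ages and 13986155, 31364256 and 12583677 in non-IPN. The deposited values are not raw read counts, so the read depth is unknown and no counting interval is given. Between 7655 and 9692 genes had at least 10 CPM in a library. Eomes, the gene whose reporter defined IPN, had 437, 102 and 98.4 CPM in IPN at the 3 ages and 214, 72.5 and 72.0 CPM in non-IPN. It was higher in IPN at each age, but its log2 difference of 0.79 ± 0.22 (SE) missed the threshold used below (limma, adjusted p = 0.101). Dcx, the neuron gene whose reporter marked both populations, did not pass either (-0.01 ± 0.26, adjusted p = 1).

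Differences between populations were tested with limma on log2(deposited value + 1) over all 19561 genes with embryonic day as a block and Benjamini-Hochberg adjustment, and a gene is said to be higher or lower where the adjusted p was below 0.05. Of the 10 members, 3 were higher in IPN (Cntn2, Nfasc and L1cam), 0 were lower and 7 did not pass. Over all genes tested, 3.39% passed, with 0.982% higher and 2.41% lower in IPN. The median log2 difference was 0.24 over the members and -0.02 over all genes tested. At an unadjusted p below 0.05, 3 members were higher and 1, Chl1, was lower. Over all genes tested, 2665 of 19561 had an unadjusted p below 0.05 (limma) in either direction.

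**Figure D1:**
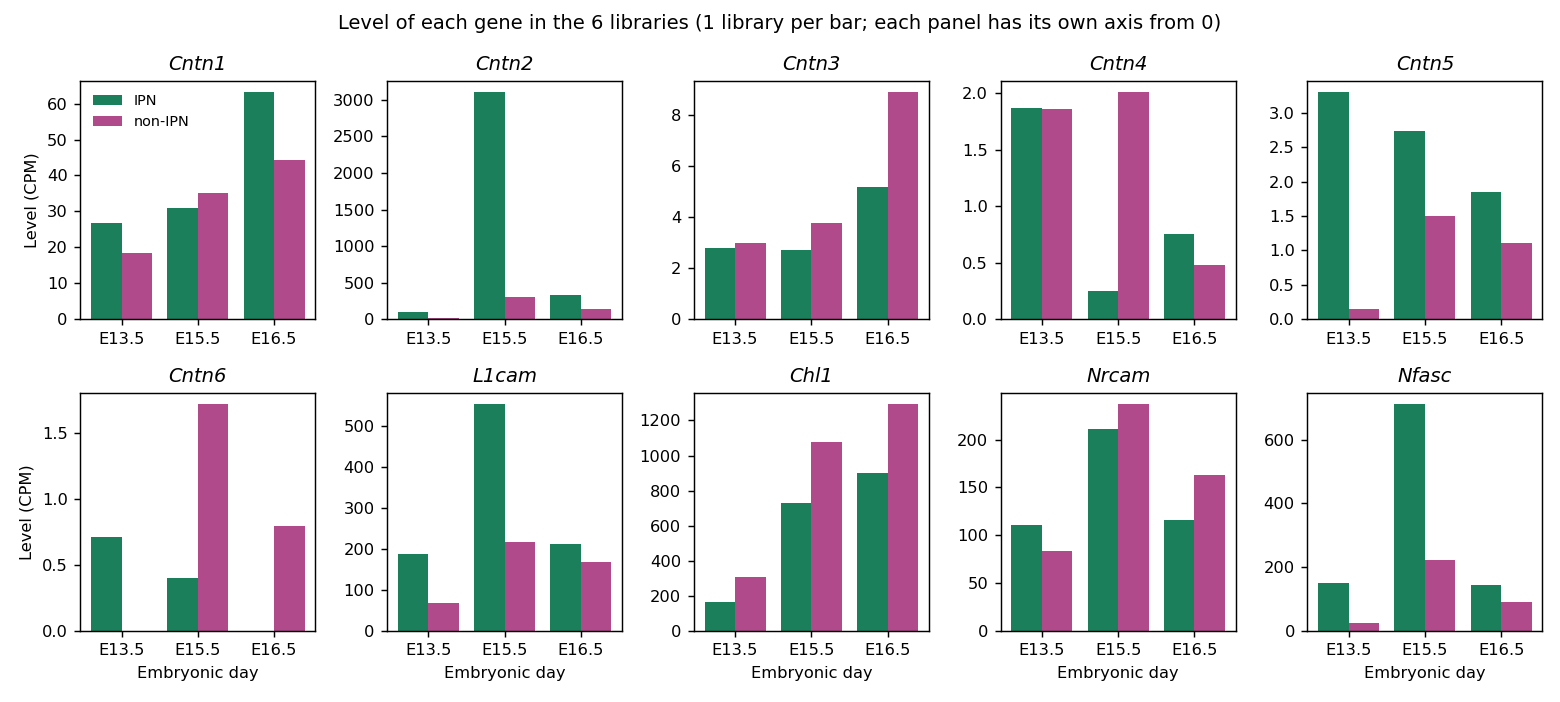
Level of each of the 10 genes in CPM (y axis, from 0, on an axis of its own for each gene) at each embryonic day (x axis), with 1 bar per library and the IPN bar left of the non-IPN bar. Cntn2, Nfasc and L1cam have the taller IPN bar at every day, and Chl1 has the taller non-IPN bar at every day. At low levels, Cntn5 also has the taller IPN bar and Cntn3 the taller non-IPN bar at every day.

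Cntn2, the contactin of early cortical axons, had 103, 3102 and 332 CPM in IPN at the 3 ages, against 18.6, 306 and 142 CPM in non-IPN. IPN was the higher population at every age, by 5.52-fold, 10.1-fold and 2.33-fold in CPM, although the ranges of the 2 populations over the ages overlapped. The fitted log2 difference was 2.48 ± 0.32 (SE, 3 libraries per population, limma, adjusted p = 0.00201). At E15.5 in IPN only 5 of all genes lay above it, since it ranked 6 of 20367 from the top, while it ranked 2055 at E13.5 and 572 at E16.5 in IPN. In non-IPN it ranked 6532, 572 and 1620.

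Nfasc encodes neurofascin, an L1 family protein of the axon initial segment and the node of Ranvier. It had 150.0, 712 and 145 CPM in IPN at the 3 ages, against 26.0, 223 and 91.8 CPM in non-IPN. IPN was higher at each age, by 5.78-fold, 3.19-fold and 1.58-fold, and the ranges over the ages overlapped. Its fitted log2 difference was 1.76 ± 0.31 (limma, adjusted p = 0.0102).

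L1cam, the founding gene of the L1 family and one mutated in human hydrocephalus with callosal defects, had 187, 555 and 213 CPM in IPN at the 3 ages, against 67.3, 218 and 169 CPM in non-IPN. IPN was 2.78-fold, 2.54-fold and 1.26-fold higher, so the gap was narrowest at E16.5, and the ranges over the ages overlapped. The fitted log2 difference was 1.19 ± 0.24 (limma, adjusted p = 0.0242). Annotated exons of L1cam share 100 bases, 1.36% of their length, with Arhgap4 on the same strand, whose own log2 difference was -2.85 (adjusted p = 0.0557).

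Chl1, the close homologue of L1, had 166, 730.4 and 901 CPM in IPN at the 3 ages, against 307, 1075 and 1294 CPM in non-IPN. It was below non-IPN at every age, with log2 differences of -0.74, -0.50 and -0.31 on the deposited scale. Its fitted value, -0.52 ± 0.19, missed the threshold (limma, adjusted p = 0.240, unadjusted p = 0.0208).

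Nrcam, which with the other L1 proteins binds ankyrin and also serves as a co-receptor for semaphorin signals, had 111, 211 and 116 CPM in IPN and 83.7, 237 and 163 CPM in non-IPN. IPN was the higher population at E13.5 and the lower at both later ages, and the fitted difference was 0.05 ± 0.23 (limma, adjusted p = 0.943). Cntn1, a contactin of axons and of the paranodal junction of myelinated fibres, had 26.6, 30.9 and 63.1 CPM in IPN and 18.3, 35.0 and 44.3 CPM in non-IPN. Its populations overlapped and changed order at E15.5, with a fitted difference of 0.43 ± 0.30 (adjusted p = 0.607).

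The remaining 4 contactins were at low levels, each with a mean below 10 CPM. Cntn3 had 2.78, 2.70 and 5.20 CPM in IPN at the 3 ages and 3.0, 3.76 and 8.90 CPM in non-IPN. Cntn4 had 1.87, 0.246 and 0.752 CPM in IPN and 1.86, 2.01 and 0.477 CPM in non-IPN. Cntn5, a contactin of subsets of sensory neurons, had 3.30, 2.74 and 1.85 CPM in IPN and 0.143, 1.5 and 1.11 CPM in non-IPN. Cntn5 was therefore the only 1 of these 4 in which every IPN value lay above every non-IPN value, and its fitted log2 difference of 1.97 ± 0.89 did not pass (limma, adjusted p = 0.371). Of its annotated exon bases, 290 (6.4%) overlap Gm32710, an antisense gene. Cntn6 had 0.711 and 0.400 CPM in IPN at E13.5 and E15.5 and was 0 in the E16.5 IPN library. In non-IPN, Cntn6 was listed at 0 at E13.5 and had 1.72 and 0.795 CPM at E15.5 and E16.5. The fitted differences of Cntn3, Cntn4 and Cntn6 ran between -0.63 and -0.31, with adjusted p between 0.830 and 0.864.

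**Figure D2:**
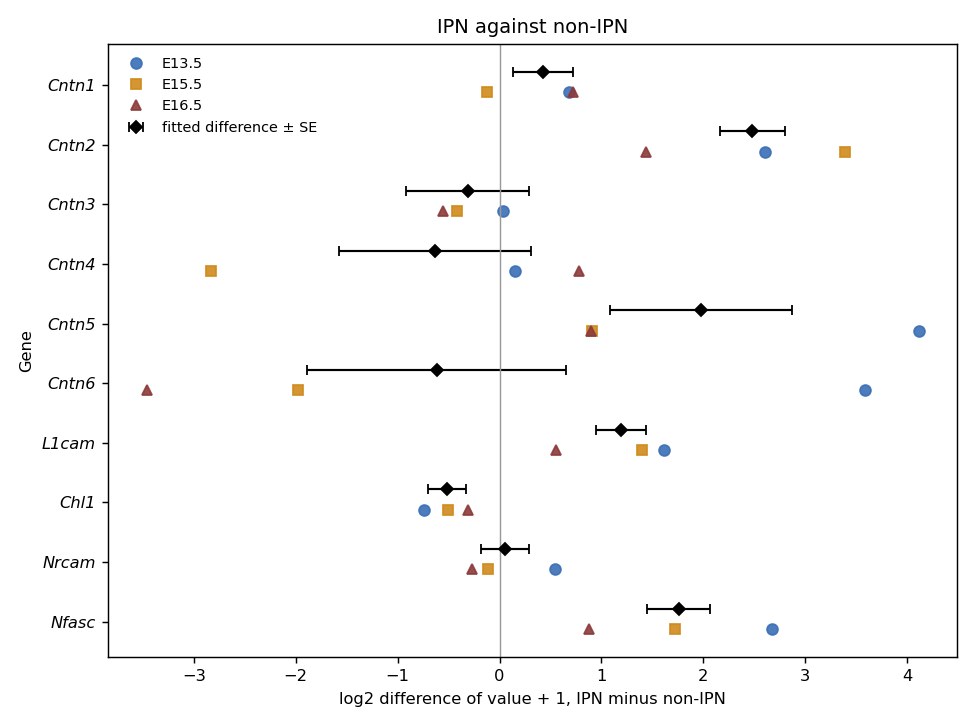
Log2 difference IPN minus non-IPN on the deposited scale (x axis) for each gene (y axis), with a point for each embryonic day and a diamond with a bar for the fitted difference ± SE over 3 libraries per population. The fitted values of Cntn2 (2.48), Nfasc (1.76) and L1cam (1.19) passed the test, and all 3 points of Chl1 lie left of 0.

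These 3 calls did not hold without the E15.5 libraries, without embryonic day as a block or with column totals. Without both E15.5 libraries, so within the amplified libraries, the differences were 2.02 for Cntn2 (limma, adjusted p = 0.109), 1.78 for Nfasc (adjusted p = 0.238) and 1.08 for L1cam (adjusted p = 0.366). Leaving out only 1 of the E15.5 libraries gave the same differences, since embryonic day was a block, and 0 members were called there too. Without the replicate block of embryonic day 0 members were called, and with column totals in place of the deposited scaling 0 were called, with log2 differences of 2.32, 1.60 and 1.04 for Cntn2, Nfasc and L1cam. At an unadjusted p below 0.05, limma called 3 members higher without the E15.5 libraries and with column totals, and 0 without the block. Over all genes and in either direction, 1663 of 19309 had such a p without both E15.5 libraries, and 2168 of 19561 with column totals. The number called at an adjusted p below 0.05 (limma) over all genes fell as well. It was 664 of 19561 as reported, 54 of 19309 without both E15.5 libraries and 196 of 19561 with column totals.

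Markers of other cell types differed between the same libraries. The summed level of 8 projection neuron markers (Neurod6, Tbr1 and others) was 3301, 4804 and 5070 CPM in IPN at the 3 ages, against 487, 408 and 2508 CPM in non-IPN, and 6 of the 8 were higher in IPN. The 8 interneuron markers summed to 26.6, 69.5 and 64.6 CPM in IPN, against 1431, 4919 and 2872 CPM in non-IPN, and 8 of 8 were lower in IPN. Dlx5 was listed at 0 in IPN at E13.5 and Slc32a1 at E16.5. The 10 microglia and macrophage markers summed to 6.79, 2.37 and 1.37 CPM in IPN, against 1065, 980 and 555 CPM in non-IPN, with 10 of 10 lower in IPN. C1qa was listed at 0 in IPN at E13.5 and E16.5, and C1qc, Fcer1g, Aif1 and Ctss in IPN at E16.5. Globin and other red cell transcripts, 7 in all, summed to 6.08, 57.5 and 12.9 CPM in IPN, against 49023, 276 and 17.5 CPM in non-IPN, with 1 of 7 called lower in IPN. The non-IPN sort thus held more transcripts of interneurons and of cells that are not neurons, and the part of these markers in the differences of the adhesion genes was not tested. In RNA from pooled cells, fewer cells of a type and less RNA per cell cannot be told apart.

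Levels of different genes are compared per kilobase of annotated exon (GENCODE M21 lengths, which need not be the authors'). Among the 6 members with a mean of at least 10 CPM, Chl1 stood first in all 3 non-IPN libraries, at 24.9, 87.4 and 105 CPM per kilobase. In IPN a different gene led each library: L1cam at E13.5 with 25.4, Cntn2 in the unamplified E15.5 library with 333, and Chl1 at E16.5 with 73.3 CPM per kilobase. Cntn1 was the last of the 6 in every IPN library, at 2.82, 3.27 and 6.69 CPM per kilobase. With 1 library per population and age, no spread stands behind this order.

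Within the L1 family, Chl1 made up 23.4%, 29.6% and 60.5% of the summed CPM per kilobase in IPN at the 3 ages, against 59.1%, 58.0% and 71.6% in non-IPN. L1cam made up 43.9%, 37.6% and 23.9% in IPN, against 21.7%, 19.7% and 15.6% in non-IPN, so every IPN share of L1cam lay above every non-IPN share. Nfasc made up 18.3%, 25.0% and 8.47% in IPN, against 4.35%, 10.47% and 4.42% in non-IPN. For Chl1 and for Nfasc alike, only the E16.5 IPN share lay within the non-IPN range of that gene.

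The ratio of L1cam to Chl1 per kilobase inside each library does not depend on the scaling between libraries. It was 1.88, 1.27 and 0.395 in IPN at the 3 ages, against 0.367, 0.340 and 0.218 in non-IPN, so the populations did not overlap. The ratio of Nfasc to Chl1 was 0.783, 0.847 and 0.140 in IPN, against 0.0735, 0.181 and 0.0617 in non-IPN, and here the populations overlapped through the E16.5 IPN library. L1cam and Nfasc had the larger and Chl1 the smaller CPM in IPN at every age, so both ratios had to be larger in IPN at each age. They are therefore no separate check of those differences. L1cam exceeded Nfasc in every library, by 2.40, 1.5 and 2.82 times in IPN and 4.99, 1.88 and 3.54 times in non-IPN.

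Among the contactins, Cntn2 made up 72.0%, 98.7% and 81.8% of the summed CPM per kilobase in IPN, against 43.1%, 86.6% and 70.4% in non-IPN. Cntn1 made up 18.4%, 0.969% and 15.3% in IPN, against 41.9%, 9.77% and 21.6% in non-IPN. At E13.5 these 2 genes were at like levels in non-IPN, with a ratio of Cntn2 to Cntn1 of 1.03, while the ratio in IPN was 3.90. The summed level of all 6 contactins was 138, 3139 and 403 CPM in IPN, against 41.9, 349.9 and 198 CPM in non-IPN. The 4 L1 family genes summed to 614, 2208 and 1375 CPM in IPN, against 484, 1753 and 1718 CPM in non-IPN, so the family sums changed order at E16.5 for the L1 family and not for the contactins.

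**Figure D3:**
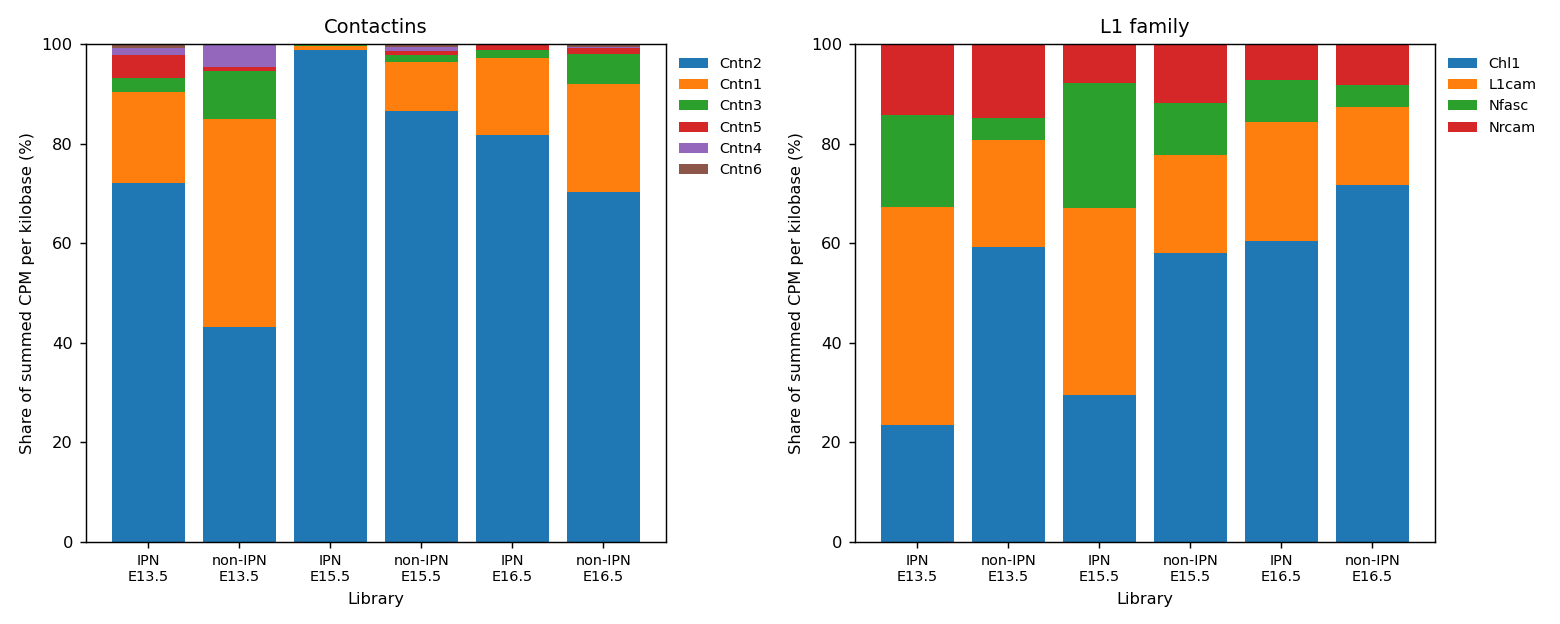
Share of each gene in the summed CPM per kilobase of its family (y axis, percent, 0 to 100) in each of the 6 libraries (x axis), for the L1 family and the contactins. Chl1 fills 23.4%, 29.6% and 60.5% of the L1 family in IPN in the order of age, and 58.0% to 71.6% in the non-IPN libraries.

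Between E16.5 and E13.5, both amplified from the same number of cells, 2 of the 10 members rose (Chl1 and Cntn2), 0 fell and 8 did not pass. Over all genes tested, 6.02% passed, with 3.76% higher and 2.26% lower at E16.5. The median log2 difference was 0.74 over the members and 0 over all genes tested. This comparison used the same fit, with 1 library per population at each age, and E15.5 gave residual spread only. Its SE is therefore not a spread between replicates of an age. Chl1 was 5.41-fold higher at E16.5 in IPN (901 CPM, against 166 CPM at E13.5) and 4.22-fold higher in non-IPN (1294 CPM, against 307 CPM). Its E16.5 levels lay above both E13.5 levels in both populations, and its fitted log2 difference was 2.14 ± 0.23 (limma, adjusted p = 0.00151). It ranked 129 and 59 from the top in IPN and non-IPN at E16.5, against 1272 and 581 at E13.5.

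Cntn2 was 3.24-fold higher at E16.5 in IPN and 7.66-fold higher in non-IPN, with a fitted log2 difference of 2.20 ± 0.39 (limma, adjusted p = 0.0119). Cntn1 was 2.37-fold higher in IPN and 2.42-fold higher in non-IPN, so both populations moved alike, and its fitted difference of 1.14 ± 0.36 did not pass (adjusted p = 0.0967). The other 3 L1 family genes did not pass with age, and their population by day terms did not pass either. For L1cam the E16.5 level was 1.14-fold that of E13.5 in IPN and 2.51-fold in non-IPN, for Nfasc 0.968-fold and 3.54-fold, and for Nrcam 1.05-fold and 1.94-fold. Their fitted age differences were 0.64 ± 0.30, 0.77 ± 0.38 and 0.39 ± 0.28 (limma, adjusted p between 0.250 and 0.472).

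**Figure D4:**
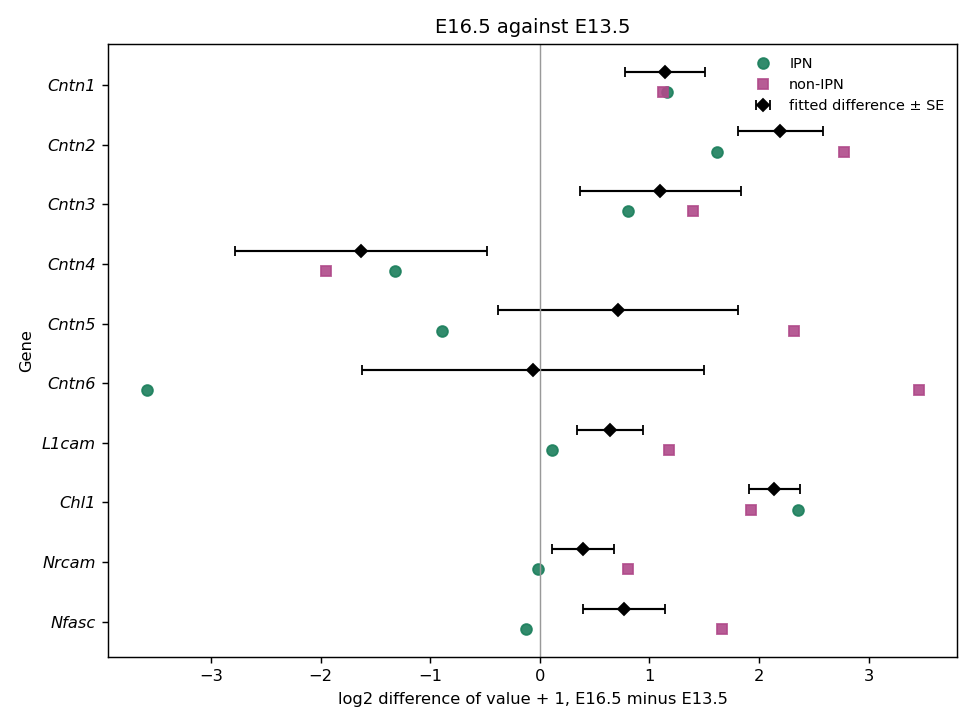
Log2 difference E16.5 minus E13.5 on the deposited scale (x axis) for each gene (y axis), with a point for IPN, a point for non-IPN and a diamond with a bar for the fitted difference ± SE. Chl1 (2.14) and Cntn2 (2.20) passed the test, and L1cam, Nfasc and Nrcam have IPN points near 0 and non-IPN points at 1.18, 1.67 and 0.81.

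The 2 age calls did not hold in every fit. Without the non-IPN E16.5 library both calls were lost (Cntn2 1.42, Chl1 2.30), and without the IPN E16.5 library that of Chl1 was (1.98). Without both E15.5 libraries Chl1 was called (limma, adjusted p = 0.0240) and Cntn2 was not (adjusted p = 0.0590). Without the IPN E13.5 library the Nfasc difference was 1.46 and its call was gained. The fits without an E13.5 or E16.5 library keep 1 library at that age, so only differences are given for them. The number called over all genes tested changed between the fits too, as given under the processing below. Cell cycle markers fell with age in 6 of 6 genes; they summed to 423 CPM in IPN at E16.5, against 997 CPM in IPN at E13.5, and to 537 CPM in non-IPN at E16.5, against 3148 CPM in non-IPN at E13.5. Eomes fell too (-1.98 ± 0.27, limma, adjusted p = 0.00437). Projection neuron markers summed to 5070 CPM in IPN at E16.5, against 3301 CPM in IPN at E13.5, and to 2508 CPM in non-IPN at E16.5, against 487 CPM in non-IPN at E13.5, with 1 of 8 called higher at E16.5. In non-IPN, radial glia markers summed to 1048 CPM at E16.5, against 4197 CPM at E13.5, and red cell transcripts to 17.5 CPM at E16.5, against 49023 CPM at E13.5, with 1 of 8 and 0 of 7 called lower over both populations. Of the interneuron markers, 3 of 8 were higher at E16.5. The part of all these markers in the age differences of the adhesion genes was not tested.

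Whether the difference between populations shifted over the days was tested by a population by day term, in log2 per day. This term used all 6 libraries, the unamplified E15.5 pair with the amplified pairs, so day and preparation cannot be told apart in it. It passed for 0 of the 10 members, against 1.3% of all genes tested, with 0.624% above 0 and 0.68% below. At an unadjusted p below 0.05, 0 members had a higher and 2 a lower term, Nfasc and Cntn6. Over all genes tested, 3263 of 19561 had an unadjusted p below 0.05 (limma) in either direction. The Nfasc term was -0.58 ± 0.16 (limma, adjusted p = 0.0805), with log2 differences IPN minus non-IPN of 2.67, 1.73 and 0.88 at the 3 ages. L1cam had 1.62, 1.40 and 0.55, with a term of -0.32 ± 0.16 (adjusted p = 0.335). Chl1 had -0.74, -0.50 and -0.31, a narrowing from the other side, with a term of 0.14 ± 0.16 (adjusted p = 0.696). Cntn2 had 2.61, 3.40 and 1.44, with no steady order over the ages and a term of -0.28 ± 0.26 (adjusted p = 0.659). The term of Cntn6, a gene at under 2 CPM, was -2.41 ± 0.62 (adjusted p = 0.0705).

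Profiles over the 6 libraries were set against those of the 9349 genes with a mean of at least 10 CPM, by the root mean square difference of log2(CPM + 1) centred on each gene's mean. Cntn2 was most like Cdh13, a lipid-anchored cadherin (0.388), then Abcc8 (0.456) and Ppp1r1b (0.523), where the median over all genes was 2.11. Nfasc was most like Nell2 (0.166), Igfbpl1 (0.214) and Foxred2 (0.268). L1cam was most like Epha3, an ephrin receptor (0.210), Nav1 (0.215) and Klhl29 (0.235). Cntn2 thus had the least close neighbours of the members measured, and its own profile stood far from most genes. The measure grows with the size of a gene's changes, and Cntn2 was highest, at 3102 CPM, in the unamplified E15.5 IPN library.

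Chl1 was most like Klf8 (0.205), Spred1 (0.233) and Crebbp (0.238). Nrcam was most like Rbm5 (0.0706), 5430411K18Rik (0.0893) and Ncor1 (0.1002), and Cntn1 like 2310001A20Rik (0.103), Zfp11 (0.115) and Trio (0.131). Among the members themselves the closest pairs were L1cam with Nfasc (0.561) and L1cam with Nrcam (0.607), and the farthest was Cntn1 with Cntn2 (2.01). None of the 6 members had another member among its 3 nearest genes, which says little about the families, since each had 9348 candidate genes.

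Of the 7 contactin-associated proteins, the neurexin-like partners of contactins, 2 were lower in IPN, 0 were higher and 5 did not pass. For this list and those below, the shares over all genes tested were 0.982% higher and 2.41% lower in IPN. With age 3.76% rose and 2.26% fell, and the population by day term passed for 1.3%. Cntnap3 had 0.194, 0.584 and 0.274 CPM in IPN at the 3 ages, against 7.36, 99.99 and 27.6 CPM in non-IPN. Its populations did not overlap, and the fitted log2 difference was -6.04 ± 0.71 (limma, adjusted p = 0.0014). Cntnap5c was listed at 0 in IPN at E13.5 and had 1.17 and 0.410 CPM in IPN at the later ages, against 1.14, 50.7 and 13.03 CPM in non-IPN (-4.67 ± 0.74, adjusted p = 0.00653). The direction of both was opposite to that of Cntn2. Between populations the interneuron and microglia marker sums given above were lower in IPN too, and their part was not tested.

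Cntnap2, the partner of Cntn2 at potassium channel clusters of mature axons, had 519.6, 59.4 and 35.5 CPM in IPN, against 86.8, 56.5 and 40.4 CPM in non-IPN. The IPN E13.5 library stood far above the other 5. Cntnap2 fell with age (-2.60 ± 0.58, limma, adjusted p = 0.0353) and was the 1 gene of the list whose population by day term passed (-0.96 ± 0.18 per day, adjusted p = 0.0175), while its population difference of 0.96 ± 0.47 did not (adjusted p = 0.442). Cntnap4 did not pass (-1.08 ± 0.37, adjusted p = 0.204), nor did Cntnap1, the partner of Cntn1 at the paranode, which was at most 1.43 CPM (0.45 ± 1.16, adjusted p = 0.896).

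Of 7 other membrane partners of contactins (receptor phosphatases, the App family, Notch1 and Mag), 0 passed between populations and 1, Notch1, fell with age (-1.998 ± 0.48, limma, adjusted p = 0.0375). Of 11 membrane partners of the L1 family, 2 were higher in IPN, the semaphorin receptors Nrp1 and Plxna4, and 0 were lower. Plxna4 had 143, 523 and 379 CPM in IPN, against 28.5, 127 and 262 CPM in non-IPN (1.77 ± 0.31, adjusted p = 0.00982). With age 3 of the 11 rose and 0 fell: Nrp1, Plxna4 and Ncam1 (1.83 ± 0.24, adjusted p = 0.00364). Plxna2 was the only 1 of the list with a called population by day term (-0.67 ± 0.16 per day, adjusted p = 0.0494).

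Of 14 intracellular linkers and adaptors of the L1 family (ankyrins, spectrins, ezrin family proteins and others), 1 was lower in IPN, 0 were higher and 13 did not pass. Msn, the moesin gene, had 5.43, 16.3 and 8.75 CPM in IPN, against 34.4, 69.95 and 32.3 CPM in non-IPN (-2.07 ± 0.35, limma, adjusted p = 0.00837). The ankyrin genes that bind neurofascin and L1, Ank3 (0.32 ± 0.20, adjusted p = 0.557) and Ank2 (0.31 ± 0.22, adjusted p = 0.617), did not pass between populations. Both rose with age, Ank3 by 1.46 ± 0.25 (adjusted p = 0.0103) and Ank2 by 1.47 ± 0.27 (adjusted p = 0.0125). Dlg4, the third of the list to rise (2.50 ± 0.58, adjusted p = 0.0337), had 3.56 CPM at E16.5, against 0.905 CPM at E13.5, in IPN and 5.64 CPM at E16.5, against 0.5005 CPM at E13.5, in non-IPN. In the unamplified E15.5 libraries Dlg4 was at 314 CPM in IPN and 212 CPM in non-IPN.

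Of 6 proteases and secretase subunits that cut L1 family proteins, 0 passed in any of the 3 tests. Of 6 matrix ligands, 0 passed between populations and 3 rose with age: Tnr (5.81 ± 0.77, limma, adjusted p = 0.00364) and Tnc (4.99 ± 0.90, adjusted p = 0.0122), the tenascins, and Ncan, the neurocan gene (1.33 ± 0.24, adjusted p = 0.0119). Ncan had 379 CPM in IPN at E16.5, against 154 CPM in IPN at E13.5, and 367 CPM in non-IPN at E16.5, against 122 CPM in non-IPN at E13.5. Tnr was at most 33.0 CPM and Tnc at most 21.7 CPM in any library.

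Of 24 other immunoglobulin superfamily adhesion and guidance genes, 4 were higher in IPN (Robo1, Robo2, Dcc and Dscam), 1 was lower (Dscaml1, -1.46 ± 0.31, limma, adjusted p = 0.0276) and 19 did not pass. With age 8 rose and 0 fell, among them the lipid-anchored Mdga2 (5.22 ± 0.47, adjusted p = 0.000953), Opcml (4.18 ± 0.55, adjusted p = 0.00364) and Ntm (4.97 ± 0.66, adjusted p = 0.00375). The median of these 24 genes was 0.92 between populations and 1.27 with age, against 0.24 and 0.74 for the 10 contactin and L1 family genes. Over all genes tested the medians were -0.02 and 0. The shares over all genes were 0.982% higher and 2.41% lower in IPN, and 3.76% higher and 2.26% lower at E16.5. Dcc was the only 1 of the 24 with a called population by day term (-0.67 ± 0.16 per day, adjusted p = 0.0472).

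**Figure D5:**
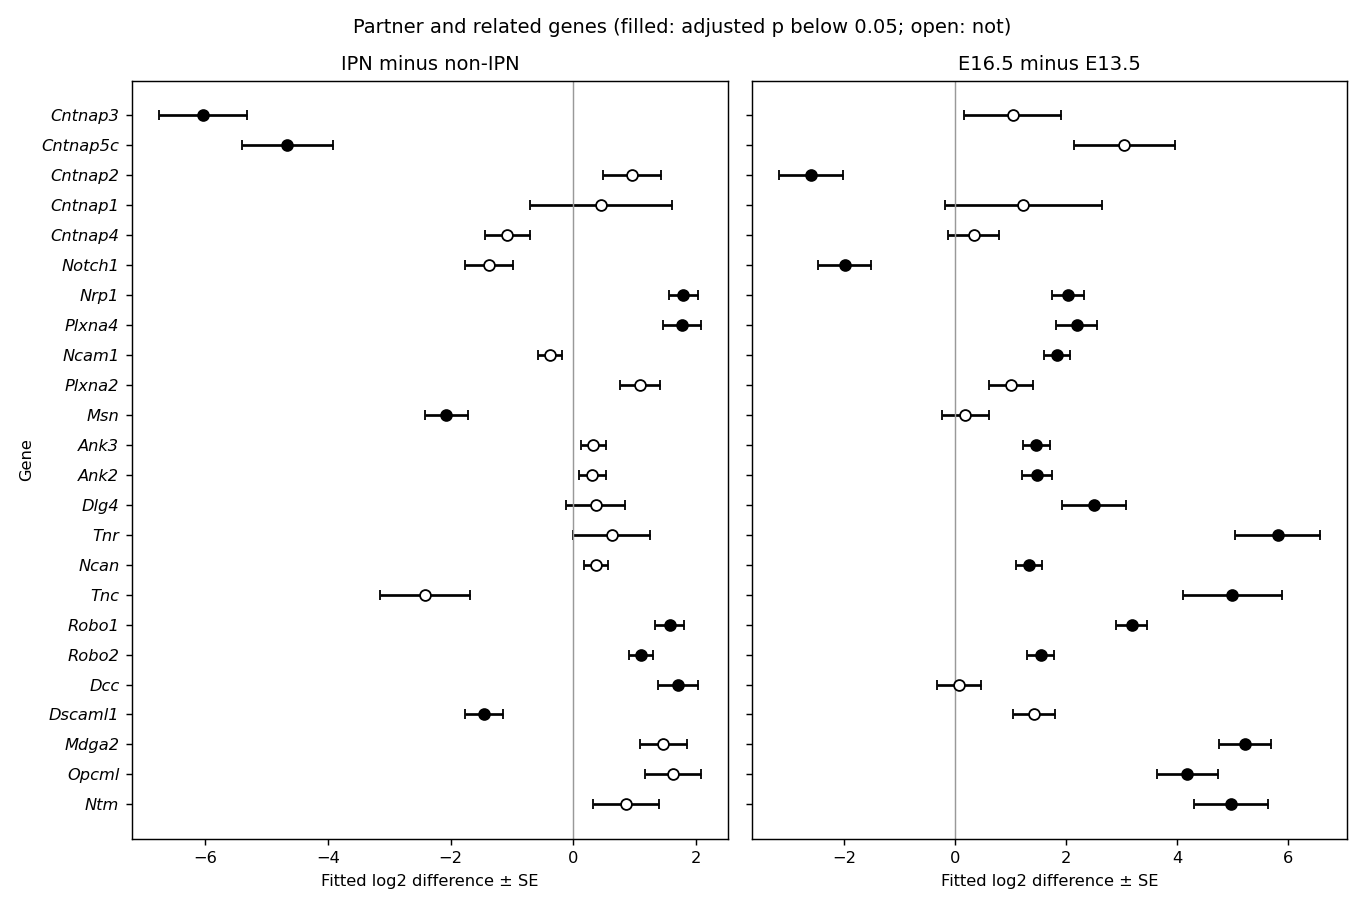
Fitted log2 difference ± SE (x axis) of the named partner and related genes (y axis), for IPN minus non-IPN and for E16.5 minus E13.5, filled where the adjusted p was below 0.05. Cntnap3 (-6.04) and Cntnap5c (-4.67) lie farthest to the left between populations, and Tnr (5.81) and Mdga2 (5.22) farthest to the right with age.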

How the data were processed

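RNA from sorted cortical cells was sequenced in 6 libraries, 1 per population and embryonic day. The deposited values are whole numbers per gene symbol and are used as a signal, not as raw counts, since their upper quartiles nearly match within each preparation: 1501.5 and 1501 in the E15.5 libraries and 438 to 444 in the amplified ones. The submitters' processing notes name CASAVA 1.9, TopHat 1.2.0, SAMtools 0.1.18, edgeR (no version) and the mm9 build; for the counter, annotation and scaling no source used here gives a name. TruSeq kits were used, per the labels' protocols, and strand use in counting is not stated.

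Of 20373 rows per library, 6 rows of 3 symbols listed more than once were dropped. Genes above 0 in at least 1 library were fitted with limma 3.58.1 (under R 4.3.3), with its trend and robust settings and a pseudocount of 1 before the log2, with population and embryonic day as factors (2 residual degrees of freedom, median prior 8.3). A second fit added population times day as a number (1 residual degree of freedom, median prior 14.5). Fold changes on the log2(value + 1) scale understate the change of low genes. Per the labels' protocols both populations of a day were sorted from dissociated cortices of the same kind of embryo. The deviations of same-day libraries from their population mean correlated (r = 0.768, 0.921 and 0.650 in order of age, over 9349 genes), and day was kept as a block. Libraries of a day share age and preparation, so this correlation can arise without common animals. The labels do not say whether animals were shared. The fit was tested on simulated data with planted differences larger than those of the called members, so that test does not cover differences of their size.

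CPM is the value per 1000000 of the column total. Of 158 list genes, 4 were matched by an older symbol. The members and lists were chosen with earlier results of these data known. Named genes are the 10 members; the called genes of each list, up to 4 per list and comparison by adjusted p, with Cntnap1, Cntnap2, Cntnap4, Ank2 and Ank3 whatever their result; the 3 nearest profiles of each member with a mean of at least 10 CPM; and Eomes and Dcx. Dscam and the neighbours Tmem81, Lrrn2, Arhgap4 and Gm32710 fall outside that rule and were named after their values were seen. Alternatives changed the scaling, pseudocount, filter, fit options, libraries and block.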

Additional observations from a re-analysis of the deposited data

Results flagged for a closer look

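In 5 of the 10 genes the difference between IPN and non-IPN ran in opposite directions at E16.5 and E13.5, or the 2 populations changed with age in opposite directions, on the log2(value + 1) scale with 1 library each; these contrasts of single libraries were not tested as such. The adjusted p given for each is that of the population by day term (limma over all genes), and none was below 0.05. The largest gap was that of Cntn6, whose E16.5 minus E13.5 change was -3.58 in IPN and 3.46 in non-IPN, a gap of -7.04 (adjusted p = 0.0705); its listed value was 0 in the E16.5 IPN library and in the E13.5 non-IPN library and stayed under 2 CPM. Cntn5 changed by -0.89 in IPN and 2.32 in non-IPN, a gap of -3.22 (adjusted p = 0.304), also at low levels. Nfasc changed by -0.13 in IPN and 1.67 in non-IPN, a gap of -1.80 (adjusted p = 0.0805). Nrcam changed by -0.02 in IPN and 0.81 in non-IPN, a gap of -0.82, with a difference between populations of -0.27 at E16.5 and 0.55 at E13.5 (adjusted p = 0.376). Cntn3 changed by 0.81 in IPN and 1.39 in non-IPN, a gap of -0.59, with a difference between populations of -0.55 at E16.5 and 0.03 at E13.5 (adjusted p = 0.844); the E13.5 sign rests on deposited values of 43 in IPN and 42 in non-IPN, and in CPM the E13.5 levels were 2.78 for IPN and 3.0 for non-IPN, so IPN was lower at both ages.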

How the results depend on the processing

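Each population call rests on 3 libraries per population. Each age call rests on 1 library per population at E13.5 and at E16.5, with E15.5 giving residual spread only. Of 166 recomputed results of the population comparison 127 kept direction and call, 26 lost the call and 13 changed sign; of 136 of the age comparison 117 kept both, 13 lost the call, 1 gained it and 5 changed sign; of 66 population by day results 61 kept both and 5 gained the call. The cause of these shifts was not tested, except that with no filter the genes at 0 in every library enter the fit. The count of members higher in IPN was 3 with median-of-ratios scaling, pseudocount 0.5 or a mean of at least 10 CPM; 1 with pseudocount 10 (L1cam adjusted p = 0.0865, Nfasc 0.0618); 0 with column totals, with no filter and with the trend and robust options off; and 0 to 3 without single libraries or a day, 2 without E13.5 libraries (L1cam 0.97, adjusted p = 0.0863). With no replicate block it was 0, and no gene of all tested was called (limma; 676 genes at an unadjusted p below 0.05). Over all genes, 664 were called between populations, 196 with column totals, 334 with pseudocount 10, 358 with the CPM minimum, 54 without both E15.5 libraries, 74 and 18 without the IPN and the non-IPN one, and 0 with no filter (2135 at an unadjusted p below 0.05) or the options off (1946), where 3 members still had an unadjusted p below 0.05. With age 1178 were called, 244 with column totals, 452 with pseudocount 10, 65 to 2085 without single libraries, 97 without both E15.5 libraries and 0 with no filter (4020) or the options off (3414). The population by day term called 255, and 906 with column totals, 1559 with median-of-ratios scaling, 530 with pseudocount 0.5, 9 with pseudocount 10, 135 with the CPM minimum and 0 with no filter (2237) or the options off (2321). The count that rose with age was 1 with column totals (Cntn2 adjusted p = 0.0826) or pseudocount 10 (Cntn2 0.0569), 0 with no filter or the options off, 1 without both E15.5 libraries, and 0 to 3 without single libraries. The count with a lower population by day term was 1 with column totals (Nfasc -0.58, adjusted p = 0.0150) and 2 with median-of-ratios scaling (Cntn6 -2.72, adjusted p = 0.00208; Nfasc -0.57, 0.00427) or pseudocount 0.5 (Cntn6 -3.01, 0.0238; Nfasc -0.58, 0.0476). Between populations the sign changed for Nrcam with column totals (-0.0853) and without E13.5 libraries (-0.20), for Cntn4 (0.46) and Cntn6 (0.0628) without E15.5 libraries, and for Cntn6 without E16.5 libraries (0.81). With age it changed for Cntn6 with column totals (0.0345), without the IPN E13.5 library (3.09) and without the IPN E16.5 library (2.07), and for Cntn5 without the non-IPN E13.5 library (-0.89) and without the non-IPN E16.5 library (-0.0909). Over the alternatives the population difference ran over 2.02 to 3.0 for Cntn2 (adjusted p 0.00154 to 1), 1.30 to 2.20 for Nfasc (0.00702 to 1) and 0.97 to 1.51 for L1cam (0.0224 to 1), called in 10, 9 and 6 of 17; the age difference ran over 1.97 to 2.30 for Chl1 (0.00121 to 0.192) and 1.42 to 2.98 for Cntn2 (0.0106 to 0.246), called in 10 and 5 of 14. With day as a block, leaving out 1 or both libraries of a day gave the same population difference. The counts out of 166 and of 17 therefore hold the same estimate more than once. No scaling moved the median of all genes by over 0.06. Since depth is unknown, nothing firm can be said of Cntn3, Cntn4, Cntn5 and Cntn6.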

Other observations

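The radial glia markers summed to 1177, 359 and 534 CPM in IPN at the 3 ages, against 4197, 608 and 1048 CPM in non-IPN, with 1 of 8 called lower in IPN, and the cell cycle markers had 2 of 6 lower in IPN. Cajal-Retzius markers summed to 684, 755 and 335 CPM in IPN, against 400, 1613 and 598 CPM in non-IPN, with 0 of 6 called. No gene of the subplate, oligodendrocyte precursor or endothelial lists was called between populations in these libraries.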
